A study of Mus musculus with 16 samples.

Results

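The interleukin receptor family was taken here as the protein-coding genes whose symbol begins with Il, a number and r, without Il1rn, which encodes a secreted antagonist, and with Il6st, which encodes the shared signal-transducing chain gp130. This gave 43 of the 54532 genes in the table, 32 of which held enough counts to be tested. They were measured by RNA sequencing in bronchoalveolar lavage cells, the cells washed out of the airways and air sacs, of male and female mice aged 8 to 10 weeks. The strain is C56BL/6J in the sample labels and C57BL/6 in the design text. Mice received bleomycin, which breaks DNA and is widely given to mice as a model of lung fibrosis, at 4 U per kg through the oropharynx, or saline by the same route, and all were examined at 14 days. There were 4 libraries each from bleomycin males (C33, C65, C66 and C67), bleomycin females (C49, C50, C68 and C69), saline males (C70 to C73) and saline females (C74 to C77), and values by library below follow this order. No genetic change is named for any group. The labels do not say whether each library came from a separate animal, so the p-values measure the spread between these samples.

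Interleukins are secreted signals between immune cells, and a cell can answer one only if it carries the matching receptor. Most receptors are built from a ligand-binding chain and a shared chain: the common gamma chain (Il2rg) serves the receptors for IL-2, IL-4, IL-7, IL-9, IL-15 and IL-21, the common beta chain those for IL-3 and IL-5, and gp130 those for IL-6, IL-11 and IL-27. These receptors signal through JAK kinases and STAT transcription factors. Receptors of the IL-1 family carry a TIR domain and, like the IL-17 receptors, signal through adaptor proteins. Some members are decoys that bind the ligand and do not signal. In the lung, resident alveolar macrophages make up most lavage cells at rest, and lymphocytes, monocytes and granulocytes enter after injury.

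Gene counts summed to between 21240382 and 24225885 in each of the bleomycin male libraries and 18871879 to 24567609 in the bleomycin female libraries, against 16471022 to 19207944 in saline males and 16385784 to 21393539 in saline females. Levels are CPM, gene counts scaled by library total and by edgeR's TMM factor for composition, unless FPKM is named. In checks of the cell label, the 14 resident alveolar macrophage markers summed to 11840 to 19800 CPM in bleomycin males and 11420 to 24760 in bleomycin females, against 17690 to 19630 in saline males and 23740 to 27000 CPM in saline females. Most of that sum was Chil3, at 9121 to 20710 CPM in bleomycin libraries and 12400 to 20890 CPM in saline libraries, which was not called (log2 fold change -0.26). Of the 14, 9 were called lower by edgeR, among them Fabp1 (-5.195), Krt79 (-4.41) and Ear1 (-3.01), 3 higher and 2 not called. Of all tested genes 28.8% were called lower and 34.7% higher, averaged over the sexes. The 14 monocyte-derived macrophage markers summed to 21100 to 30990 and 14690 to 25250 CPM in bleomycin males and females. In saline males and females the sums were 865 to 1181 and 732 to 925 CPM. Most of the bleomycin sum was Spp1, at 8301 to 16730 CPM, and Apoe, at 3002 to 8354 CPM. All 14 were called higher, among them Ccr2, at 117.7 to 203.5 CPM in bleomycin libraries and 11.36 to 19.52 CPM in saline libraries. The T cell receptor complex genes Cd3d, Cd3e and Cd3g together had 41.8, 139, 89.2 and 109.6 CPM in bleomycin males, with 96.1, 88.7, 35.95 and 44.9 CPM in bleomycin females, while no saline library exceeded 0.525 CPM. In these mixed samples fewer cells of a type and less RNA per cell cannot be told apart.

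Most interleukin receptor genes were higher under bleomycin. Averaged over the sexes, edgeR's quasi-likelihood test called 24 of the 32 tested members higher at an adjusted p below 0.05, or 75% of them, against 34.7% of all 15257 tested genes. It called 6 lower, or 18.8%, against 28.8% of all genes. At least 2-fold higher were 18 members, against 15.5% of all genes, and at least 2-fold lower were 2, Il12rb2 and Il6st, against 7.94% of all genes. The median log2 fold change was 1.19 over the members and 0.0116 over all genes. Of the 32, 8 passed the filter on low counts only through the bleomycin libraries (Il1r2, Il1rl1, Il9r, Il2rb, Il23r, Il5ra, Il21r and Il12rb1) and so had to be higher there. Among the 24 that pass with the saline libraries alone, 16 were called higher, 6 lower and 2 were not called. The shares called among all genes that pass in this way were not counted, so these counts have no background beside them. With library totals alone in place of TMM the median of all genes was -0.20, and 34.7% of all called genes were higher, against 54.6% with TMM, so that small changes are relative to the scaling.

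**Figure D1:**
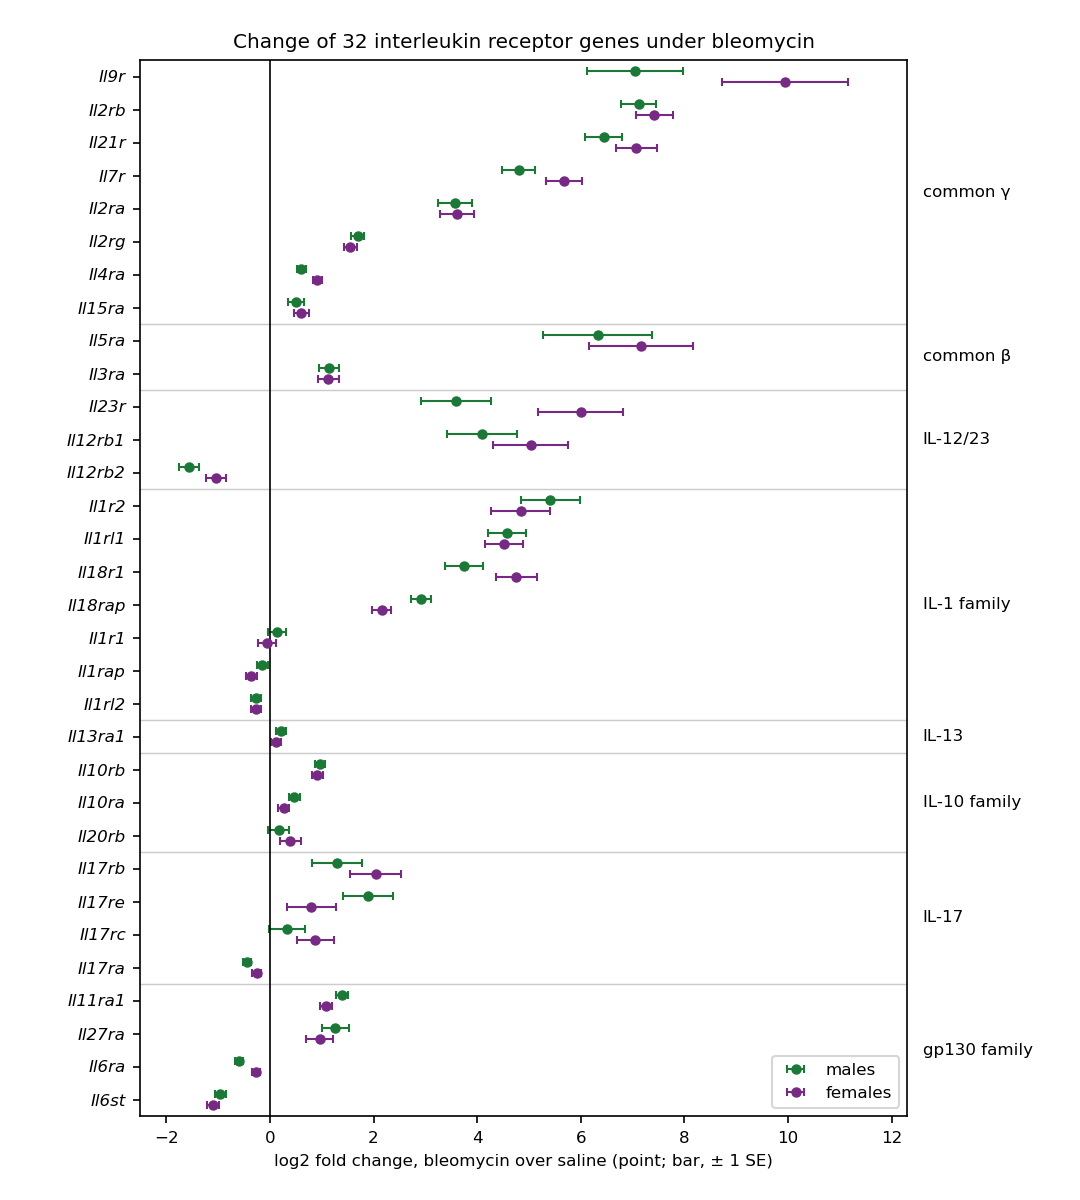
Log2 fold change of bleomycin over saline (x axis; point with ± 1 approximate SE) for the 32 tested receptor genes, grouped by role, with males above females in each row. The common gamma chain group lies wholly to the right of 0, from 0.56 for Il15ra to 8.49 for Il9r averaged over the sexes, and Il12rb2, Il6st, Il6ra and Il17ra lie to the left in both sexes. In the common gamma chain group Il2rb, Il9r and Il21r passed the filter on low counts only through the bleomycin libraries and so had to be higher. The fitted values of Il9r and Il5ra rest on saline groups with 0 to 3 counts and are not bounds.

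All 8 chains of the common gamma chain group were called higher in both sexes and in the average. Of all tested genes 34.7% were called higher in the average, 31.5% in males and 26.7% in females. Il2rb, Il9r and Il21r passed the filter on low counts only through the bleomycin libraries and so had to be higher there. The shared gamma chain Il2rg (chromosome X, 101264378 to 101268255), to which the cytokine-specific chains of this group pair, had 64.3, 95.3, 74.2 and 88.9 CPM in bleomycin males and 78.6, 77.2, 70.5 and 68.5 CPM in bleomycin females, against 23.04, 29.3, 22.9 and 24.7 CPM in saline males and 29.2, 26.5, 23.8 and 20.8 CPM in saline females. All 8 bleomycin libraries lay above all 8 saline libraries. Its log2 fold change was 1.62 (SE 0.09, edgeR adjusted p 1.84e-11), and 30.5% of its exon bases are shared on the same strand with the read-through model Gm20489, which had at most 0.0484 CPM in any library.

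Il2rb (chromosome 15, 78479256 to 78495271), the signalling chain for IL-2 and IL-15 on T and NK cells, had 34.6, 60.6, 50.1 and 57.2 CPM in bleomycin males and 61.3, 57.03, 32.04 and 29.2 CPM in bleomycin females. In saline males it had 0.258, 0.229, 0.588 and 0.339 CPM, and in saline females 0.277, 0.304, 0.1575 and 0.284 CPM. The lowest bleomycin library was thus far above the highest saline library, and the log2 fold change was 7.27 (SE 0.25, edgeR adjusted p 3.09e-14). The other ligand-binding chains of these cytokines changed less: Il2ra, the high-affinity IL-2 chain of regulatory and activated T cells, averaged 13.1 CPM in bleomycin males and 11.97 CPM in bleomycin females, against 1.12 and 0.970 CPM in saline males and females (log2 fold change 3.59), and Il15ra, which also presents IL-15 to neighbouring cells, averaged 13.3 and 16.6 CPM against 9.34 and 10.9 CPM (0.56). Per gene length, the FPKM of Il15ra was 0.204 to 0.618 times that of Il2rb in bleomycin libraries and 15.0 to 73.3 times that of Il2rb in saline libraries.

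Il7r (chromosome 15, 9505788 to 9530176, minus strand), the receptor chain for IL-7 and, with Crlf2, for TSLP, is a marker of naive and memory T cells and of innate lymphoid cells. It had 71.7, 147, 109 and 106 CPM in bleomycin males and 138, 132, 67.99 and 61.5 CPM in bleomycin females, against 2.43, 5.83, 3.97 and 3.44 CPM in saline males and 1.83, 2.30, 2.47 and 1.135 CPM in saline females. No bleomycin library overlapped a saline library, and the log2 fold change was 5.24 (SE 0.24, edgeR adjusted p 1.66e-12). Il21r (chromosome 7, 125603429 to 125633570, plus strand), the receptor of a T helper cell cytokine that acts on B, T and NK cells, had 36.4, 67.96, 63.6 and 72.45 CPM in bleomycin males and 62.3, 61.4, 30.8 and 42.5 CPM in bleomycin females. In saline it had 0.413, 1.43, 0.735 and 0.242 CPM in males and 0.499, 0.261, 0.368 and 0.3405 CPM in females, and its log2 fold change was 6.76 (SE 0.27, edgeR adjusted p 2.28e-13).

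Il9r (chromosome 11, 32187541 to 32200279, minus strand), the receptor chain for the T cell cytokine IL-9, which acts on mast cells and lymphocytes, was nearly absent under saline. It had 3.84, 8.17, 5.85 and 5.90 CPM in bleomycin males and 13.05, 7.73, 1.93 and 1.60 CPM in bleomycin females, against 0, 0.114, 0.0490 and 0 CPM in saline males and 0 in every saline female library. In females this was at least 167-fold higher, taking 3 counts over the 4 saline libraries as the floor. In males the ratio of the pooled levels was 152, on 494 counts against 3, with an exact counting interval of 51.6 to 739 at 95%. Its edgeR adjusted p was 9.91e-08. The 2 highest bleomycin female libraries, C49 and C50, stood apart from C68 and C69 in this gene.

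Il4ra (chromosome 7, 125552120 to 125579474, plus strand), which binds IL-4 and IL-13 and drives alternative activation of macrophages, had the highest FPKM of the family under bleomycin. It had 332, 330.2, 368 and 360.4 CPM in bleomycin males and 324.5, 376, 399.5 and 406 CPM in bleomycin females, against 233, 213, 243 and 222 CPM in saline males and 233, 189, 184 and 192 CPM in saline females. All bleomycin libraries lay above all saline libraries, although the log2 fold change was only 0.76 (SE 0.06, edgeR adjusted p 6.56e-09). Il4ra and Il21r are neighbours, 23954 bases apart on the same strand, and changed by 0.76 and 6.76 on the log2 scale.

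The promoters of these genes are shown so that genes that were low or nearly silent under saline can be set beside Il4ra, which was abundant there. Windows run from 250 bases before to 50 bases after the RefSeq start on GRCm38.p6, 5′ to 3′ on the strand of the gene. Capitals mark matches, on either strand, to the STAT motif TTCNNNGAA, the same STAT arms with a spacer of 4 bases in place of 3, the AP-1 motif TGANTCA, the PU.1 motif GAGGAAGT or the RUNX motif TGTGGTTT; none of these matches overlapped in the windows shown. Il7r lies at chr15:9529827-9530126 (minus strand), Il9r at chr11:32200230-32200529 (minus strand), Il21r at chr7:125603179-125603478 (plus strand) and Il4ra at chr7:125552021-125552320 (plus strand).
Il7r: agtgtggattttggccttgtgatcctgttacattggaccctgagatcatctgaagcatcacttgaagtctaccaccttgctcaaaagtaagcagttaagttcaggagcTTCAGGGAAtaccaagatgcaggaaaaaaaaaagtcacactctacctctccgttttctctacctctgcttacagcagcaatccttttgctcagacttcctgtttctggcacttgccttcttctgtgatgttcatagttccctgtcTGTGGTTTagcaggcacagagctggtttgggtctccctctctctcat
Il9r: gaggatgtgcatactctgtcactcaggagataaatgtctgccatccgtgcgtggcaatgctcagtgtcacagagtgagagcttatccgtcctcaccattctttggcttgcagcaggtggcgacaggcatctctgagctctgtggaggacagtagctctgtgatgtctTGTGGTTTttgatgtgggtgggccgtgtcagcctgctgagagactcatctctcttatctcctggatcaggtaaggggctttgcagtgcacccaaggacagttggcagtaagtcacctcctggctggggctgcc
Il21r: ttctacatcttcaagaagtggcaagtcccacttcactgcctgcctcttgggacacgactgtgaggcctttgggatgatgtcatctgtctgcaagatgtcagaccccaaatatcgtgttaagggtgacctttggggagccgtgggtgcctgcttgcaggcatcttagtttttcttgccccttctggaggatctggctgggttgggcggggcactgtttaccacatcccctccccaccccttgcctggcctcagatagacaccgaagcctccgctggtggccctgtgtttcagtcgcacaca
Il4ra: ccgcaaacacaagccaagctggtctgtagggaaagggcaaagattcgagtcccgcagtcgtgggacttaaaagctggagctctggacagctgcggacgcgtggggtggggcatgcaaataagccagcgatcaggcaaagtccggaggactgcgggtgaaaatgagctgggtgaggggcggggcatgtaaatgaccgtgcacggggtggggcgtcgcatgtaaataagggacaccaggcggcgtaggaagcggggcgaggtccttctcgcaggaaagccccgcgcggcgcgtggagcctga
The Il7r window held 1 STAT match, which begins 142 bases before the start, and 1 RUNX match. The Il9r window held 1 RUNX match, and the Il21r and Il4ra windows held no match to these letters, which says nothing about binding elsewhere.

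Of the 41 receptor symbols, 34 had a RefSeq window, and several had more than 1, giving 40 windows. The STAT motif was found in 5 of these, or 12.5%, against 8.30% of all 32851 windows, and the STAT motif with the longer spacer in 5, against 6.95% of all windows. The AP-1 motif was found in 6 windows, or 15%, against 7.81%, the RUNX motif in 2, or 5%, against 1.78%, and the PU.1 motif in 1, or 2.5%, against 3.20%. These are counts of letters and were not tested. No window was given for Il2rb, Il12rb1, Il17ra, Il10ra, Il10rb, Il27ra and Il22ra2.

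**Figure D2:**
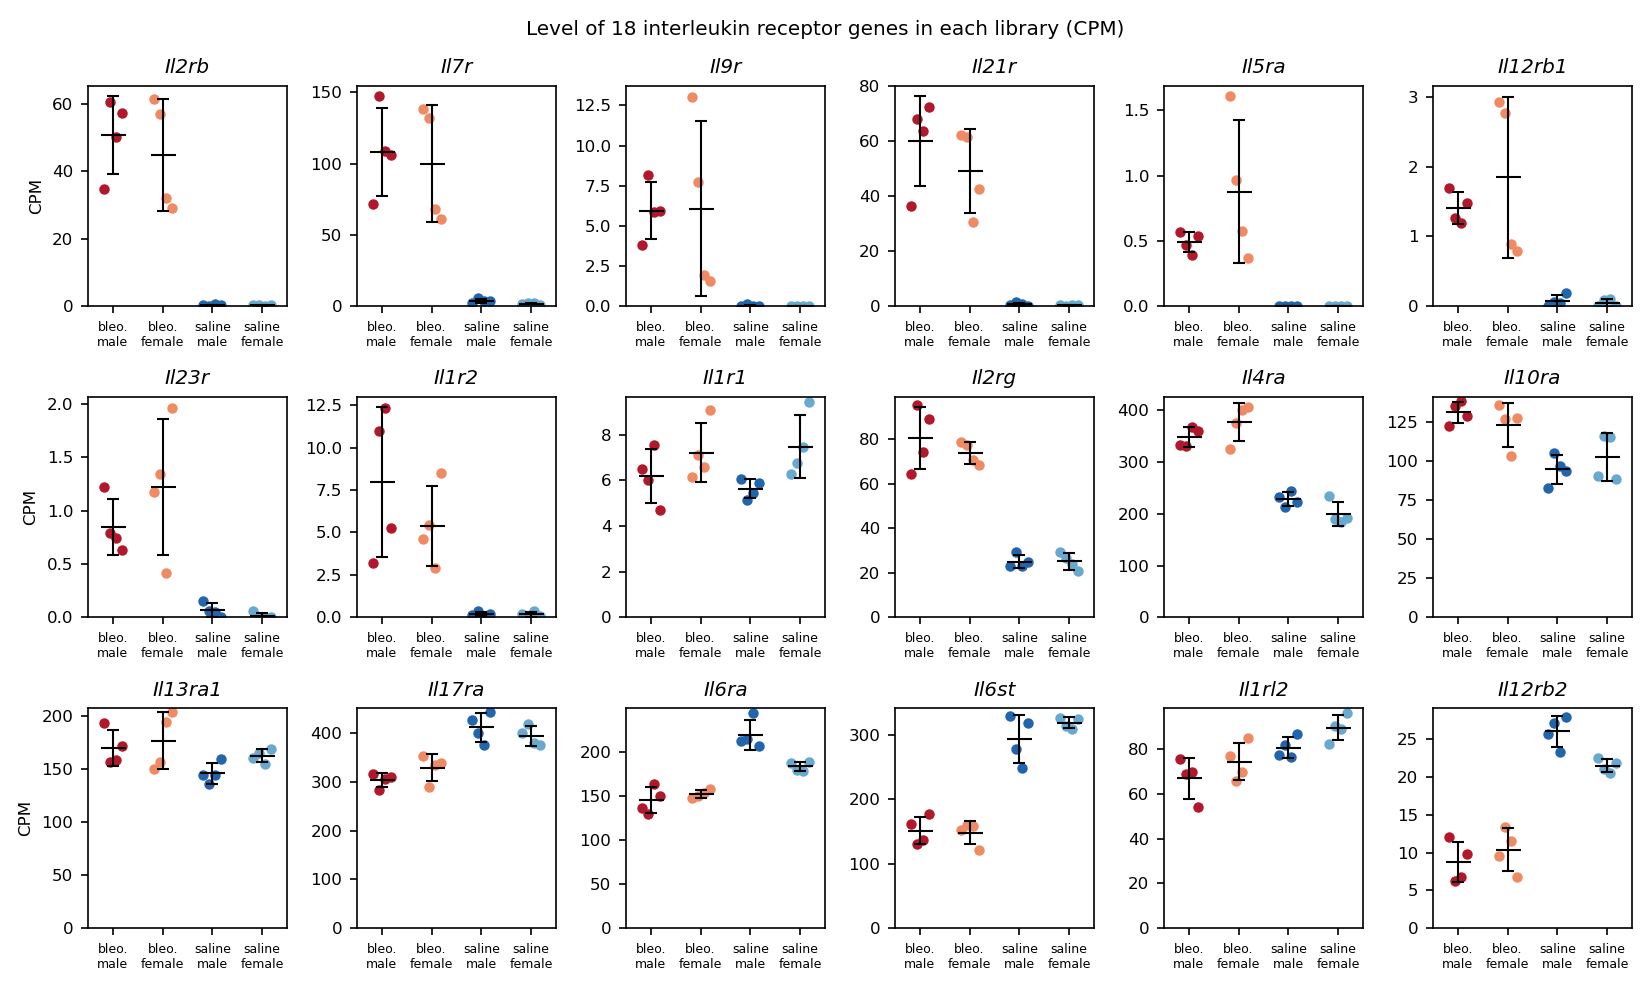
CPM (y axis, from 0) of 18 receptor genes in each of the 16 libraries, with bleomycin males and females left of saline males and females; bars show the mean ± SD of 4 libraries. Il2rb, Il7r, Il9r, Il21r, Il5ra, Il12rb1, Il23r and Il1r2 are near 0 in saline, whereas Il6st, Il6ra, Il17ra and Il12rb2 are lower in every bleomycin library than in any saline library.

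Both common beta chain receptors were called higher in the average, as were 34.7% of all tested genes. Il5ra passed the filter on low counts only through the bleomycin libraries and so had to be higher there. Il5ra (chromosome 6, 106710357 to 106749037), the IL-5 chain known from eosinophils and B-1 cells, had 0 counts in all 8 saline libraries. It had 0.567, 0.472, 0.397 and 0.537 CPM in bleomycin males and 1.61, 0.967, 0.574 and 0.368 CPM in bleomycin females. With the same floor, males were at least 12.9-fold higher and females at least 23.7-fold higher (edgeR adjusted p 4.34e-06). The highest value was in C49. The 12 eosinophil, mast cell and basophil markers summed to 151.4 to 260.8 CPM in bleomycin males and 182 to 268 CPM in bleomycin females, against 524.5 to 586.5 CPM in saline males and 577 to 591 CPM in saline females. Of the 4 that were tested 3 were called higher and 1 lower, against 34.7% and 28.8% of all tested genes. The lower one was Siglecf (-1.69), which alveolar macrophages also express and which had most of the sum in saline. Ccr3 had 0.313 to 4.09 CPM in bleomycin libraries and at most 0.0555 CPM in saline libraries. Prg2 had 0.0522 to 2.34 CPM in bleomycin libraries and 0 CPM in saline libraries, and both were highest in C49. The eosinophil peroxidase gene Epx was at most 0.175 CPM in any bleomycin library and at most 0.145 CPM in any saline library. The part of these cells in the result was not tested. Il3ra, the IL-3 chain of basophils, dendritic cells and monocytes, averaged 26.8 and 29.8 CPM in bleomycin males and females, against 12.1 and 13.6 CPM in saline males and females, a log2 fold change of 1.14 (SE 0.14). Csf2rb, the shared chain that Il5ra and Il3ra signal through, and the related chain Csf2rb2 were not called in the average (-0.15 and 0.08, edgeR adjusted p 0.103 and 0.351). Csf2rb averaged 876 and 1034 CPM in bleomycin males and females, against 1079 and 1028 CPM in saline males and females. In males alone it was called lower (-0.30, SE 0.11, edgeR adjusted p 0.0254), as was Csf2ra, the GM-CSF chain that pairs with it (-0.24, SE 0.07, edgeR adjusted p 0.0104). Neither was called in females, and the difference between the sexes was not called (edgeR adjusted interaction p 0.643 and 0.563).

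The chains of the IL-12 and IL-23 receptors moved in opposite directions. The 2 that rose, Il12rb1 and Il23r, passed the filter on low counts only through the bleomycin libraries and so had to be higher there. Il12rb1 (chromosome 8, 70808449 to 70821424), the chain both receptors share, had 1.70, 1.26, 1.19 and 1.48 CPM in bleomycin males and 2.92, 2.77, 0.887 and 0.798 CPM in bleomycin females. In saline males it had 0, 0.0572, 0.0490 and 0.194 CPM, and in saline females 0, 0.0869, 0.105 and 0 CPM. The groups did not overlap, and the log2 fold change was 4.56 (SE 0.50, edgeR adjusted p 2.31e-07). Il23r (chromosome 6, 67422932 to 67491855), the IL-23 chain of type 17 lymphocytes, had 1.22, 0.786, 0.744 and 0.626 CPM in bleomycin males and 1.17, 1.345, 0.417 and 1.96 CPM in bleomycin females, against 0.155, 0.0572, 0.0490 and 0 CPM in saline males and 0.0555, 0, 0 and 0 CPM in saline females. Its log2 fold change was 4.80 (SE 0.54, edgeR adjusted p 3.5e-07), and in females the saline group held 1 count against 96.

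Il12rb2 (chromosome 6, 67291318 to 67376188, minus strand), the signalling chain for IL-12, which drives type 1 lymphocyte responses, showed the largest fall of the family. It had 11.99, 6.29, 6.795 and 9.84 CPM in bleomycin males and 9.59, 13.4, 11.6 and 6.81 CPM in bleomycin females, against 25.7, 27.0, 23.3 and 27.9 CPM in saline males and 22.5, 21.1, 20.4 and 21.85 CPM in saline females. Every bleomycin library lay below every saline library, and the log2 fold change was -1.31 (SE 0.13, edgeR adjusted p 1.14e-07). Of its exon bases, 40.0% are shared with Serbp1 on the opposite strand, which had 223 to 286 CPM in bleomycin libraries and 260 to 306 CPM in saline libraries and changed by -0.13. Whether the authors' counting used strand is not stated, so reads of the 2 genes cannot be told apart with certainty. In both treatments Il12rb2 was the more abundant chain: per gene length its FPKM was 3.55 to 14.1 times that of Il12rb1 in bleomycin libraries. The promoter of Il12rb2, shown as that of the member with the largest fall, lies at chr6:67376139-67376438 on the minus strand and holds 1 STAT match, marked in capitals, that begins 123 bases before the start.
Il12rb2: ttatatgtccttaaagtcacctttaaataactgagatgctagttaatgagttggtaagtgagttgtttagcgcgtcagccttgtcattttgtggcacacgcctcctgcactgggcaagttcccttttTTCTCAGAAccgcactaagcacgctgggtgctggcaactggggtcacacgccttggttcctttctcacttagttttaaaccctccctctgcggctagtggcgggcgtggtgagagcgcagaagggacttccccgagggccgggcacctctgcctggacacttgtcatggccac

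The IL-1 family was split between genes that rose many-fold and genes that hardly changed. Of 9 members 7 were tested, of which 4 were called higher and 2 lower, against 34.7% and 28.8% of all tested genes. Of the 4, Il1r2 and Il1rl1 passed the filter on low counts only through the bleomycin libraries and so had to be higher there. Il1r2 (chromosome 1, 40074079 to 40125231), a decoy receptor that captures IL-1 without signalling and is known from neutrophils, regulatory T cells and activated macrophages, had 3.18, 11, 12.35 and 5.28 CPM in bleomycin males and 4.625, 5.42, 2.92 and 8.53 CPM in bleomycin females. In saline males it had 0.155, 0.343, 0.0490 and 0.194 CPM, and in saline females 0.222, 0.0869, 0.368 and 0.0568 CPM. The groups did not overlap and the log2 fold change was 5.12 (SE 0.41, edgeR adjusted p 3.05e-09). Its highest bleomycin libraries were C65, C66 and C69 and its lowest C33 and C68. The 14 neutrophil markers summed to 162 to 236 CPM in bleomycin males and 149 to 184 CPM in bleomycin females. The sums were 86.7 to 97.5 CPM in saline males and 63.15 to 74.35 CPM in saline females. Of 8 tested markers 6 were called higher and 1 lower, against 34.7% and 28.8% of all tested genes. S100a9 had 3.18 to 40.5 CPM in bleomycin libraries and at most 0.1665 CPM in saline libraries. Retnlg had 0.991 to 13.05 CPM in bleomycin libraries and at most 0.111 CPM in saline libraries. Csf3r had 29.85 to 42.4 CPM in bleomycin libraries and 42.06 to 59.25 CPM in saline libraries. Ly6g was at 0 in all libraries other than C66, with 0.0496 CPM, and the part of these cells was not tested.

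Il1r1 (chromosome 1, 40225080 to 40317257), the signalling receptor with which the decoy competes, had 6.499, 6.03, 7.54 and 4.70 CPM in bleomycin males and 6.135, 7.10, 6.575 and 9.08 CPM in bleomycin females, against 6.04, 5.15, 5.44 and 5.90 CPM in saline males and 6.27, 6.78, 7.46 and 9.42 CPM in saline females. The groups overlapped throughout and no change was called (log2 fold change 0.04, SE 0.12, edgeR adjusted p 0.783). Per gene length, the FPKM of the decoy was 1.63 to 6.09 times that of Il1r1 in bleomycin males and 1.48 to 3.13 times in bleomycin females, against 0.0300 to 0.222 times in saline males and 0.0201 to 0.164 times in saline females. Per gene length the decoy thus lay above the signalling receptor in all 8 bleomycin libraries and below it in all 8 saline libraries. In CPM, which does not allow for length, it lay above Il1r1 in C65, C66 and C67 and below it in C33, C49, C50, C68 and C69. Il1rap, the accessory chain that Il1r1, Il1rl1 and Il1rl2 need to signal, averaged 32.2 and 31.2 CPM in bleomycin males and females, against 35.7 and 40.1 CPM in saline males and females (log2 fold change -0.25, SE 0.07).

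Il1rl1, which encodes the IL-33 receptor ST2 of mast cells, type 2 innate lymphoid cells and regulatory T cells, averaged 9.07 and 8.09 CPM in bleomycin males and females, against 0.374 and 0.347 CPM in saline males and females (log2 fold change 4.55, SE 0.26). The IL-18 receptor chains rose with it: Il18r1, the binding chain of T helper 1 and NK cells, averaged 26.2 and 27.6 CPM against 1.95 and 1.02 CPM (4.25, SE 0.27), and its signalling partner Il18rap averaged 15.7 and 15.3 CPM against 2.08 and 3.44 CPM (2.53, SE 0.13). Il1rl2 (chromosome 1, 40324610 to 40367562), the receptor for the IL-36 cytokines, had 75.6, 68.9, 69.5 and 54.0 CPM in bleomycin males and 76.8, 65.85, 69.97 and 84.8 CPM in bleomycin females. In saline males it had 77.2, 82.0, 76.35 and 86.5 CPM, and in saline females 82.35, 90.5, 89.1 and 96.2 CPM. The male groups did not overlap and the female groups did, and the log2 fold change was -0.27 (SE 0.07, edgeR adjusted p 0.0026). The call was lost in males when C67, C71 or C73 was left out, and in females when C50, C68, C75, C76 or C77 was left out. Il1rapl1 and Il1rapl2, which are known from neurons, had 0 counts in every library.

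These 6 genes stand side by side on chromosome 1 in the order Il1r2, Il1r1, Il1rl2, Il1rl1, Il18r1 and Il18rap, all on the plus strand, from 40074079 to 40551705 on GRCm38. The changes did not follow this order. Il1r2, Il1rl1 and Il18r1 rose by 5.12, 4.55 and 4.25 on the log2 scale, while Il1r1 and Il1rl2 between them stood at 0.04 and -0.27. Il1rl1 and Il18r1 are 136 bases apart, and Il1r2 and Il1r1 are 99848 bases apart. The RefSeq promoter of Il1r2, shown as that of the decoy, begins at a start inside the annotated gene, at chr1:40085843-40086142 on the plus strand, and holds 1 STAT match, marked in capitals, that begins 111 bases before the start.
Il1r2: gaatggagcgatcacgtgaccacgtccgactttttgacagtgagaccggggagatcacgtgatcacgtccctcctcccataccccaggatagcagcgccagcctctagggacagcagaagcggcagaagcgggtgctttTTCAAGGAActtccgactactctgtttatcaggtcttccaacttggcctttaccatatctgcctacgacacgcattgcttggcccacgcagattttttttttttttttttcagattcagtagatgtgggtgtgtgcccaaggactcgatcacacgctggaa

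**Figure D3:**
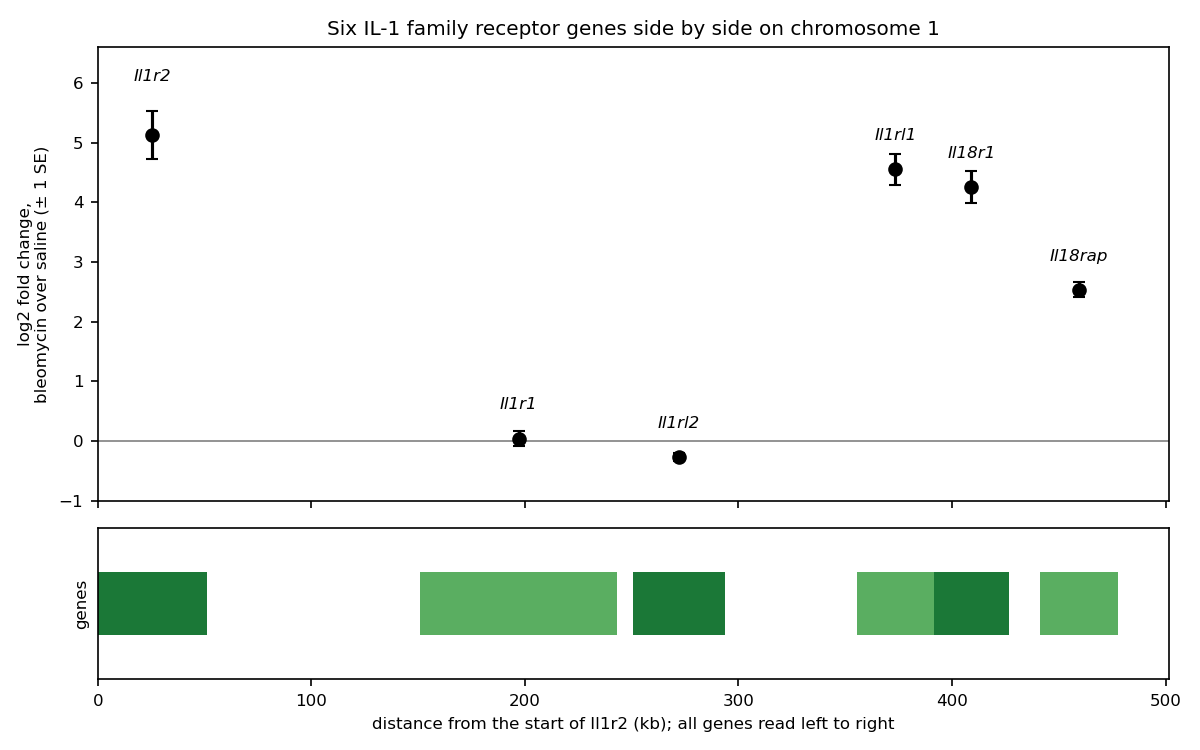
Log2 fold change of bleomycin over saline, averaged over the sexes (upper panel; point with ± 1 approximate SE), for the 6 neighbouring IL-1 family receptor genes against their distance in kb from the start of Il1r2, with the extent of each gene as a bar (lower panel). Il1r1 at 0.04 and Il1rl2 at -0.27 lie between Il1r2, which rose by 5.12, and Il1rl1, which rose by 4.55.

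Il13ra1 (chromosome X, 36112110 to 36171259), which pairs with Il4ra to form the second IL-4 and IL-13 receptor of macrophages, was among the most abundant members in both treatments. It had 193.5, 157, 158.5 and 172 CPM in bleomycin males and 150.4, 157, 195 and 204.5 CPM in bleomycin females, against 144.5, 136, 145 and 159.9 CPM in saline males and 161, 166, 155.5 and 169 CPM in saline females. The groups overlapped. The call for the average (log2 fold change 0.17, SE 0.07, edgeR adjusted p 0.0407) was made in neither sex alone (adjusted p 0.0655 in males and 0.345 in females), and with library totals alone the value was -0.05. It was lost under 15 of 24 alternative settings, 11 of which left out 1 library. Per gene length, the FPKM of Il4ra was 1.06 to 1.48 times that of Il13ra1 in bleomycin libraries and 0.700 to 1.04 times in saline libraries. Il13ra2, a decoy for IL-13, held 3 counts over all bleomycin libraries and 0 over all saline libraries, too few to test.

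In the IL-10 family, Il10ra (chromosome 9, 45253837 to 45269149), the ligand-binding chain through which IL-10 restrains macrophages, had 122, 135, 138 and 128 CPM in bleomycin males and 136, 126.5, 103 and 127 CPM in bleomycin females. In saline males it had 82.85, 105, 96.8 and 93.6 CPM, and in saline females 90.3, 116, 115 and 88.0 CPM. The male groups did not overlap and the female groups did, and the log2 fold change was 0.37 (SE 0.07, edgeR adjusted p 0.000322), or 0.16 and no longer called with library totals alone. In females alone the call was lost under 17 of 24 settings, with edgeR or DESeq2 adjusted p of 0.0576 to 0.61. Il10rb, the chain shared with the IL-22 and interferon lambda receptors, averaged 89.4 and 79.1 CPM in bleomycin males and females, against 45.8 and 41.9 CPM in saline males and females (0.94, SE 0.07). The FPKM of Il10ra was 1.37 to 2.26 times that of Il10rb in bleomycin libraries and 2.09 to 2.93 times in saline libraries. Il20rb, part of the IL-19, IL-20 and IL-24 receptors, averaged 3.69 and 4.76 CPM against 3.28 and 3.61 CPM and was not called (0.28, edgeR adjusted p 0.0983). The epithelial chains Il20ra and Il22ra1 and the soluble IL-22 binding protein Il22ra2 held 0, 11 and 15 counts over all bleomycin libraries and 0 counts over all saline libraries.

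Of the 5 IL-17 receptor genes 4 were tested. In the average 3 were called higher and 1 lower, against 34.7% and 28.8% of all tested genes. In males 2 were called higher and 1 lower, against 31.5% and 24.9% of all genes. In females 1 was called higher and 1 lower, against 26.7% and 17.2%. Il17ra (chromosome 6, 120463247 to 120487559), which all the receptors of this group use, had 316, 283, 305 and 309.9 CPM in bleomycin males and 353, 289, 335 and 338 CPM in bleomycin females, against 427, 400.2, 375 and 443 CPM in saline males and 400, 418, 379 and 376 CPM in saline females. All bleomycin libraries lay below all saline libraries, with a log2 fold change of -0.35 (SE 0.06, edgeR adjusted p 2.58e-05). Il17rb, the IL-25 chain, averaged 1.51 and 1.90 CPM in bleomycin males and females, against 0.614 and 0.451 CPM in saline males and females (1.67, SE 0.34), with its highest value, 3.70 CPM, in C49; its call in males was lost without C33, C66, C70, C71 or C73 (edgeR adjusted p 0.0534 to 0.063). Il17re, the IL-17C chain, averaged 1.39 and 0.9501 CPM against 0.365 and 0.537 CPM (1.35, SE 0.34) and was called in males but not in females. Il17rc, the partner of Il17ra for IL-17A and IL-17F, averaged 1 and 1.17 CPM against 0.794 and 0.639 CPM (0.60, SE 0.25). It was called in the average (edgeR adjusted p 0.0438) and in neither sex alone. The call was lost under 15 of 23 alternative settings, 11 of which left out 1 library, with adjusted p of 0.0516 to 0.176; without C50 the value was 0.37. Il17rd held 32 counts over the bleomycin libraries and 4 over the saline libraries.

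The IL-6 receptor chains fell while other gp130 family receptors rose. Il6st (chromosome 13, 112464070 to 112510086, plus strand), which encodes gp130, had 161, 130.3, 138 and 177 CPM in bleomycin males and 153, 160.2, 159 and 121.5 CPM in bleomycin females. In saline males it had 329.8, 278, 249.5 and 319 CPM, and in saline females 327, 314.5, 309 and 325 CPM. The highest bleomycin library lay well below the lowest saline library, and the log2 fold change was -1.03 (SE 0.08, edgeR adjusted p 1.96e-09). Il6ra (chromosome 3, 89864059 to 89913196), the IL-6 binding chain, had 137, 129.9, 163 and 150.3 CPM in bleomycin males and 147, 149.5, 154 and 158 CPM in bleomycin females, against 212, 214, 244 and 206 CPM in saline males and 187, 179, 179 and 189 CPM in saline females. These groups did not overlap either, and the log2 fold change was -0.43 (SE 0.05, edgeR adjusted p 1.5e-06). The FPKM of gp130 was 0.597 to 0.918 times that of Il6ra in bleomycin libraries and 0.796 to 1.37 times in saline libraries. The promoter of Il6st, shown as that of a member that fell while highly expressed, lies at chr13:112463820-112464119 on the plus strand, is 68.3% G and C against a median of 52.7% over all windows, and held no match to the motifs named above.
Il6st: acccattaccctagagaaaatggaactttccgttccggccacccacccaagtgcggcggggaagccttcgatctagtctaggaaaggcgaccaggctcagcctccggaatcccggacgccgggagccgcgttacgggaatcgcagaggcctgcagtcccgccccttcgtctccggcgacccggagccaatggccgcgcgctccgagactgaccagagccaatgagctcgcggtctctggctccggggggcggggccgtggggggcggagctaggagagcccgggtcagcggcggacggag

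Il11ra1, the IL-11 binding chain, averaged 89.8 and 81.4 CPM in bleomycin males and females, against 34.2 and 38.4 CPM in saline males and females (log2 fold change 1.24, SE 0.08). Its near copies Il11ra2, listed under 3 identifiers, held 37, 3 and 0 counts over all bleomycin libraries and were not tested. Of the 50-base words in the chromosome 4 copy, 59.3% also occur in Il11ra1, so that reads of the copies cannot be assigned with certainty. Il27ra, through which IL-27 restrains T cells, averaged 28.6 and 27.2 CPM in bleomycin males and females, against 11.9 and 14.0 CPM in saline males and females (1.11, SE 0.19), and within bleomycin ran from 16.1 CPM in C69 to 46.7 CPM in C49. Il31ra, whose gene lies 9811 bases from Il6st, held 73 counts over the bleomycin libraries and 41 over the saline libraries and was not tested.

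Compared per gene length in the authors' FPKM, the order of the receptors was led by the same few genes in both treatments. Under bleomycin the highest were Il4ra at 59.5 ± 4.91, Il13ra1 at 46.1 ± 5.35, Il17ra at 36.0 ± 2.66, Il10ra at 35.8 ± 3.21 and Il2rg at 31.9 ± 4.42 FPKM (SD over 8 libraries). Under saline they were Il17ra at 46.3 ± 2.97, Il13ra1 at 41.5 ± 3.04, Il4ra at 35.5 ± 3.89, Il10ra at 28.1 ± 3.47 and Il6st at 27.5 ± 2.56 FPKM. Il17ra, Il10ra and Il2rg under bleomycin, and Il10ra and Il6st under saline, differed from each other by less than the larger SD of the pair. Il7r stood at 22.1 ± 7.24 FPKM under bleomycin, the sixth in order, and at 0.625 ± 0.313 FPKM under saline. A mean of at least 1 FPKM was reached by 25 of the 43 members under bleomycin and 16 under saline, and at least 10 FPKM by 13 and 9. Il21r and Il2rb reached 16.3 and 11.01 FPKM under bleomycin and Il9r 1.20 FPKM, below Il4ra, Il13ra1, Il17ra and Il10ra.

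**Figure D4:**
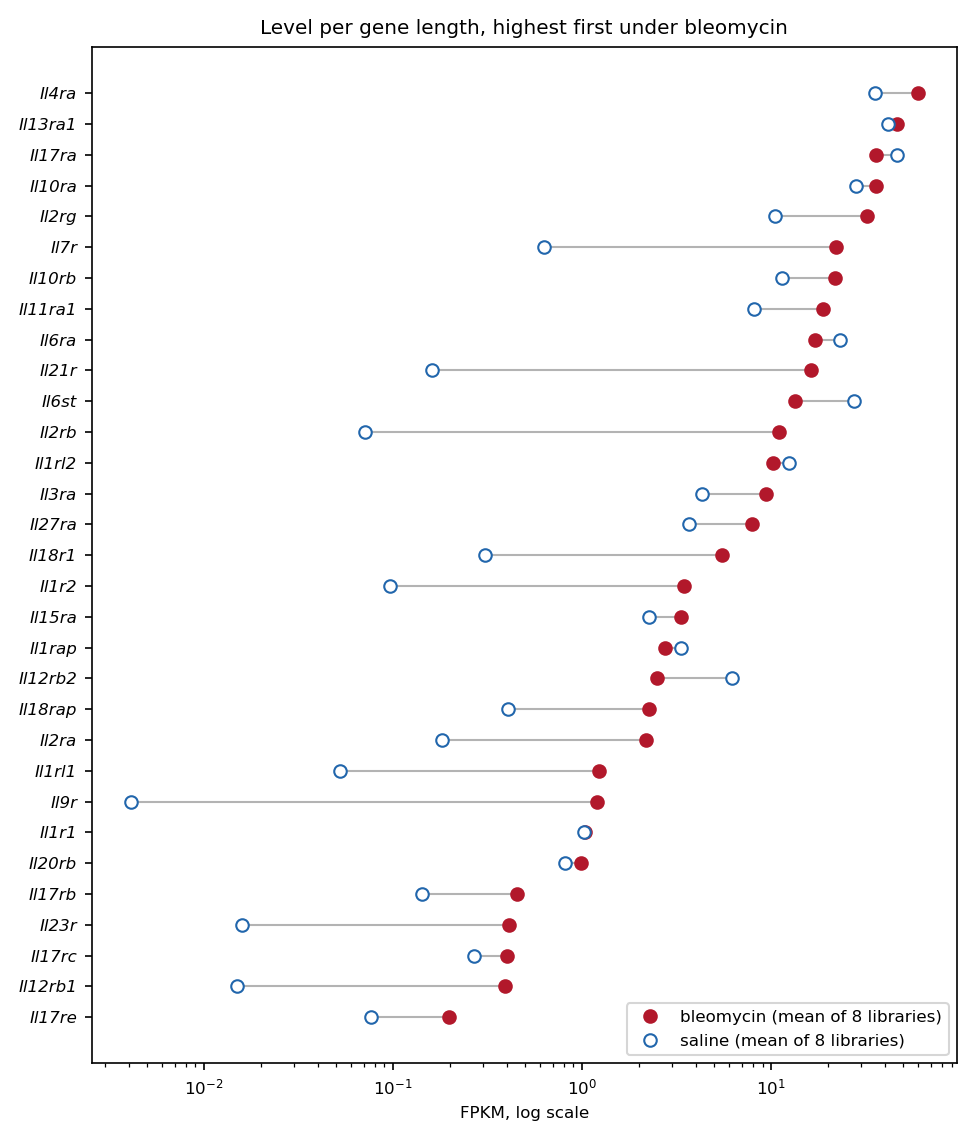
Mean FPKM (x axis, log scale) of 31 tested receptor genes under bleomycin (filled) and saline (open), ordered by the bleomycin level; Il5ra is left out because it is listed at 0 in saline. Il4ra, Il13ra1, Il17ra and Il10ra lead in both treatments, with 59.5, 46.1, 36.0 and 35.8 FPKM under bleomycin against 35.5, 41.5, 46.3 and 28.1 FPKM under saline.

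In both sexes most members were higher. In males 22 of the 32 members were called higher, against 31.5% of all genes, and 5 lower, against 24.9%. In females 21 were called higher, against 26.7% of all genes, and 6 lower, against 17.2%. The median log2 fold change of the members was 1.28 in males and 1.02 in females. No member was called in the interaction of bleomycin with sex, where edgeR called 0.00655% of all genes, and 3 members had an unadjusted p below 0.05: Il6ra (log2 difference of the changes, males minus females, -0.33, SE 0.11, adjusted p 0.563), Il18rap (0.76, SE 0.25, adjusted p 0.563) and Il4ra (-0.31, SE 0.13, adjusted p 0.611). DESeq2 and limma voom also called 0 members. A missed threshold does not show that the sexes responded alike: the interaction SE was 0.66 for Il21r and 0.96 for Il1r2, so that sizeable differences could have gone undetected.

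Between males and females under bleomycin no member was called, against 0.059% of all genes, and Il15ra alone had an unadjusted p below 0.05 (log2 fold change, male over female, -0.33, edgeR adjusted p 0.995); DESeq2 and limma voom also called 0. Under saline no member was called either, against 0.269% of all genes, and 5 had an unadjusted p below 0.05. Among these, Il18rap averaged 2.08 CPM in saline males and 3.44 CPM in saline females without overlap (-0.73, SE 0.20, edgeR adjusted p 0.155). Il6ra averaged 219 CPM in saline males and 183.5 CPM in saline females without overlap (0.26, SE 0.08, edgeR adjusted p 0.236), and Il7r averaged 3.92 CPM in saline males and 1.94 CPM in saline females with overlap (0.99, SE 0.40, edgeR adjusted p 0.437). Il1r1 averaged 5.63 CPM in saline males and 7.48 CPM in saline females without overlap (-0.41, SE 0.17, edgeR adjusted p 0.47), and Il4ra 228 and 199 CPM with overlap (0.19, SE 0.09, edgeR adjusted p 0.515). When edgeR was fitted to the saline libraries alone it called 3 members, Il6ra (adjusted p 0.0325) and Il12rb2 (0.0476) higher in males and Il18rap (0.0368) lower. DESeq2 called 1 member under saline, Il6ra, and limma voom 0.

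The bleomycin libraries differed from each other in some receptors far more than in others. The ratio of the highest to the lowest bleomycin library exceeded 3 for 7 of the 32 members: it was 8.18 for Il9r, 5.07 for Il17rb, 4.71 for Il23r, 4.36 for Il5ra, 4.23 for Il1r2, 3.66 for Il12rb1 and 3.62 for Il18r1. It stayed below 2 for 16 members, among them Il4ra and Il17ra, each at 1.25, and Il6ra at 1.26. The shares of all tested genes above 3 and below 2 were not counted, so these counts have no background beside them. Counting error widens the ratio where counts are few. Il23r, Il5ra, Il12rb1 and Il17rb had 8 to 32, 6 to 33, 13 to 66 and 14 to 76 counts per bleomycin library. Il9r, Il1r2 and Il18r1 had 26 to 268, 56 to 249 and 212 to 968 counts, and Il4ra 6301 to 8949. For 19 of the 32 members the lowest bleomycin library was C33, C68 or C69, as it was for 39.97% of the 15050 tested genes with a single lowest library. These were also the 3 libraries with the lowest sum of the CD3 genes, 41.8, 35.95 and 44.9 CPM, against 88.7 to 139 CPM in the other 5. Il2rb, Il7r and Il21r were lowest in the same 3 libraries. Il1r2 and Il3ra did not follow this order: C69 was among the highest for both. The 20 T cell markers summed to 447 to 891 CPM in bleomycin males and 395 to 780 CPM in bleomycin females, against 266 to 277 CPM in saline males and 242 to 273 CPM in saline females, and the part of T cells in the receptor results was not tested. In saline this sum was mostly Cd2, at 237 to 272 CPM, which is 1 of the 20 markers and fell, while the other 19 rose. All 10 B cell markers and 10 of the 11 dendritic cell markers were also called higher in the average, against 34.7% of all tested genes. The 11 NK and cytotoxic lymphocyte markers summed to 42.3 to 86.3 and 32.4 to 69.7 CPM in bleomycin males and females, against 0.930 to 3.09 and 1.59 to 2.21 CPM in saline males and females.

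**Figure D5:**
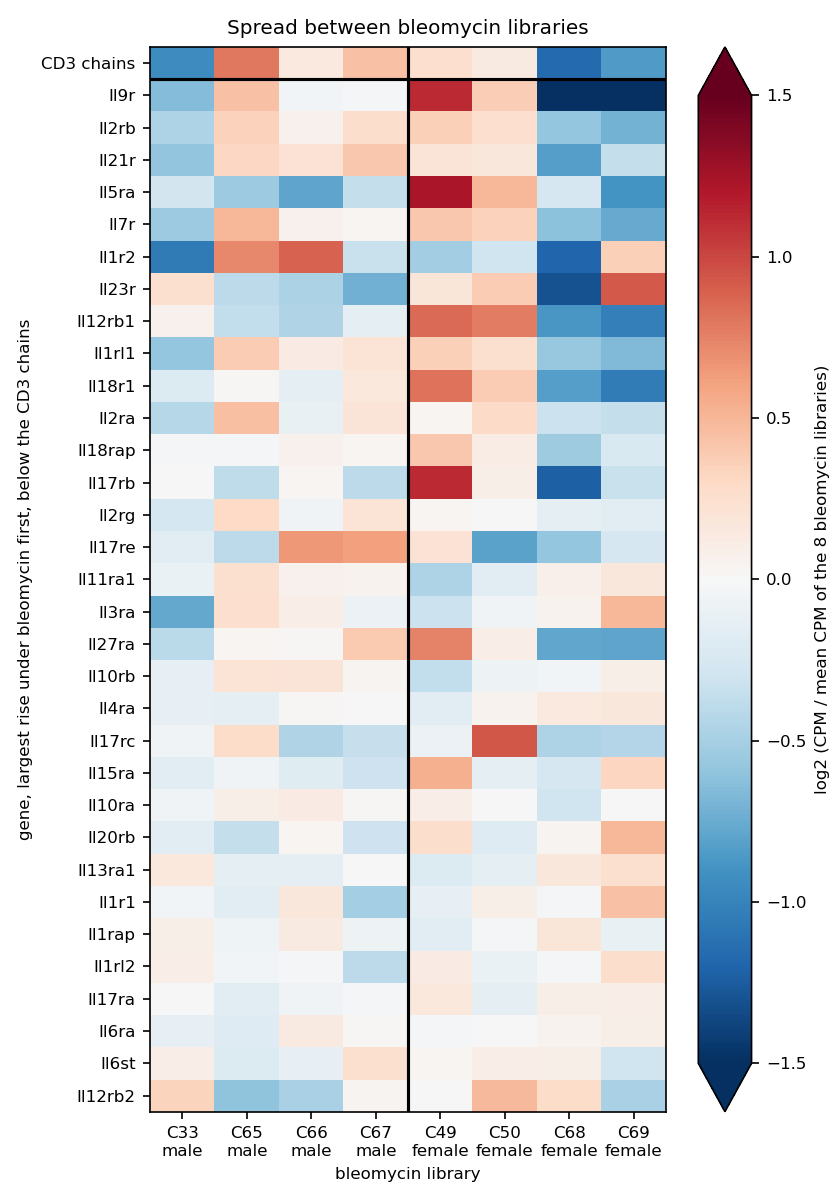
Level of the CD3 genes (top row) and of the 32 tested receptor genes in each bleomycin library relative to the mean of the 8 (colour, log2 scale; colours saturate at 1.5), with males left of females and genes ordered by their change under bleomycin. Libraries C33, C68 and C69 are low in the CD3 genes and in Il2rb, Il7r and Il21r, and the rows of Il4ra, Il17ra and Il6ra are almost even.

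Counts of calls in lists of other genes of these pathways are for the average over the sexes unless a sex is named, where 34.7% of all genes were called higher and 28.8% lower. Of 36 interleukin genes 14 were tested, and 8 were called higher and 3 lower, with a median log2 fold change of 1.37. The 3 with the smallest p were Il12b, which encodes the p40 chain of IL-12 and IL-23 (16.01 ± 3.02 and 14.2 ± 4.33 CPM in bleomycin males and females, against 1.58 ± 0.361 and 1.05 ± 0.268 CPM in saline males and females; log2 fold change 3.55), Ebi3, a chain of IL-27 and IL-35 (3.45), and Il1f9, an IL-36 cytokine that binds Il1rl2 (4.49). IL-5, IL-9 and IL-21, the ligands of receptors that rose, had 0 counts in every library. Of the soluble antagonists, Il18bp, which traps IL-18, averaged 19.2 and 18.2 CPM against 4.51 and 4.24 CPM (2.09, SE 0.14), and Il1rn, the IL-1 receptor antagonist, averaged 185 and 185 CPM against 229.6 and 253 CPM (-0.38, SE 0.07).

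Among 10 partner chains outside the family 9 were tested, and 6 were called higher and 0 lower in the average, with 3 not called (their unadjusted p ran from 0.0723). In males 6 were called higher and 2, Csf2ra and Csf2rb, lower, and in females 6 higher and 0 lower. The smallest p were those of Cd4, a T cell coreceptor that also binds IL-16 (6.80), Lifr, the LIF chain that pairs with gp130 (4.06), and Sigirr, which restrains IL-1 family signalling (2.995, SE 0.26). Of the 11 JAK and STAT genes 7 were called higher and 4 lower, with a median of 0.46. Stat4, which IL-12 activates, rose by 4.40 (SE 0.25), Jak2 by 0.86 (SE 0.07) and Jak1 by 0.61 (SE 0.05). Of the 8 feedback inhibitors of the SOCS family 4 were called higher and 3 lower, with a median of 0.02 that lies near the 0.0116 of all genes. Socs3, which binds gp130 and limits IL-6 signals, averaged 118.5 ± 32.98 and 127 ± 19.5 CPM in bleomycin males and females, against 10.1 ± 1.28 and 9.87 ± 2.31 CPM in saline males and females (3.62, SE 0.15). Socs1 rose by 3.76 (SE 0.25) and Socs6 by 1.18 (SE 0.07). Of the 14 adaptors and kinases of the IL-1 and IL-17 receptors 8 were called higher and 2 lower, with a median of 0.21. The smallest p were those of Traf3ip2, the IL-17 receptor adaptor Act1 (1.79, SE 0.20), Tab2 (0.52, SE 0.06) and Pik3ap1, a phosphoinositide kinase adaptor, which fell by 1.46 (SE 0.10).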

How the data were processed

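RNA sequencing counts per gene were used as the authors deposited them, for 16 lavage libraries. Per the submitters' processing notes, the tools were DESeq2, featureCounts 1.5.0-p3, HISAT2 2.0.5 and fastp 0.12.2, and the builds mm9 and mm10 are named with no role given; whether counting used strand is not given in the sources used here. The authors also deposited FPKM values, which normalise for gene length and depth, and these were used only to compare levels between genes. Gene positions in the deposited table equal those of GENCODE M21 on GRCm38 for the 41 of 43 members found there.

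The members, gene lists and tests were chosen with earlier results of these data known. Genes were tested with edgeR 4.0.16 (R 4.3.3) by its quasi-likelihood test on all 16 libraries with 1 coefficient per group, TMM scaling and the filterByExpr filter at a minimum count of 10. This left 15257 genes, over which p-values were adjusted by Benjamini-Hochberg, with calls at 0.05, in 6 comparisons. The SE of a log2 fold change is approximate, its size divided by the root of the F statistic. The fit was tested on simulated data. Counting intervals and floors (3 counts) cover counting error only. No pair of libraries of a group agreed within sampling noise. Values in every library are given for the 8 largest rises and 5 largest falls among members called in the average, the 6 highest mean FPKM, any member called in a sex comparison, and the decoys with the chains they compete with, where tested. From each pathway list the 3 genes with the smallest p are named, and others were chosen after their values were seen. Alternatives were RLE scaling, library totals alone, DESeq2 1.42.0, limma 3.58.1 voom, no filter and a stricter one, each library left out, C49 and C69 left out, 2-group fits and an additive model. The authors' comparison tables were not used here.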

Additional observations from a re-analysis of the deposited data

Results flagged for a closer look

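A library far from the other 3 of its group was looked for in 69 groups of 4, and 2 stood apart, both in the saline female library C74. Chance alone sets apart about 1 in 20 groups. Il4ra had 233.4 CPM in C74, against 183.8 to 191.6 CPM in the other saline female libraries. Il23r had 0.05549 CPM in C74, which is 1 count, and 0 in the other saline female libraries.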

How the results depend on the processing

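Averaged over the sexes, the members called higher numbered 20 to 25 and those called lower 6 under all alternatives run, against 24 and 6. The 20 came with the stricter filter and the 25 with no filter, which change the set of members tested. Over the 32 tested members in that comparison, 731 values kept their direction and side of the threshold, 30 lost the call, in Il10ra, Il13ra1 and Il17rc alone, and 1 reversed: Il13ra1 stood at -0.04769 with library totals alone. In males 11 values lost the call, in Il10ra, Il15ra, Il17rb and Il1rl2, and 5 gained one, in Il13ra1 and Il1rap. In females 24 lost it, in Il10ra, Il15ra, Il1rap and Il1rl2, and 4 gained one, in Il17rc; 18 members were called higher when only the female libraries were fitted. Leaving out 1 library gave 21 to 24 higher and 6 lower in the average, 20 to 22 and 4 to 5 in males, and 19 to 22 and 5 to 6 in females. No member was called for interaction or for sex in any of these leave-outs.

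Over all genes, the interaction gave 1 call, and 0 with library totals alone, limma voom, the stricter filter or without C49 and C69, 15 with no filter and 23 with DESeq2. Leaving out 1 library gave 0 to 1. Males against females under bleomycin gave 9 calls, and 14 with no filter. Under saline the comparison gave 41 calls, and 119 with no filter, 191 with DESeq2, 80 without C49 and C69 and 765 when only the saline libraries were fitted; leaving out 1 library gave 20 (C76) to 76 (C49). In that fit of the saline libraries 2 members were called higher in males, Il6ra and Il12rb2, and 1 lower, Il18rap; DESeq2 called 1 higher, Il6ra. The cause was not tested. Members with few counts, such as Il23r and Il5ra, limit what these depths can show. No paired analysis was possible because the groups share no replicate codes.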

Other observations

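Neighbouring receptor genes outside chromosome 1 also differed in their change. Il2ra and Il15ra, 12096 bases apart on chromosome 2, changed by 3.59 and 0.56 on the log2 scale. Il12rb2 and Il23r, 46743 bases apart on chromosome 6, changed by -1.31 and 4.80. Il17re and Il17rc, 668 bases apart on chromosome 6, changed by 1.35 and 0.60.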
